A study of Mus musculus with 4 samples.

Results

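The insulin receptor substrates Irs1 and Irs2 and the receptors that phosphorylate them, the insulin receptor Insr and the insulin-like growth factor 1 receptor Igf1r, are described here in blood progenitors of the mouse. These 4 genes were matched by symbol, out of 26286 genes in the count table. The set was chosen by the difference in Irs1 counts between the groups of these same libraries (position 11 of 14912 by fold change), and its other members are joined to Irs1 by function. Differences between the groups in these 4 genes are therefore given as a description, without a test. RNA sequencing was done on LSK cells of C57BL/6 bone marrow, a sorted fraction that lacks lineage markers, carries Sca-1 and Kit and contains the blood stem cells. There were 2 libraries labelled with a deletion of the homeobox factor gene Hhex, called labelled deleted below, and 2 wild-type libraries. The labels give no age, sex, deletion driver or further allele. They do not state whether replicates were separate mice. The libraries labelled deleted differ in sex-linked genes and so hold cells of different animals, while the spread between the wild-type libraries may be technical.

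Insulin and the insulin-like growth factors bind receptor tyrosine kinases at the cell surface. The activated receptors phosphorylate docking proteins of the Irs family, which have no enzyme activity of their own and recruit PI3 kinase, Grb2 and other proteins with SH2 domains. Akt, mTOR and the FoxO transcription factors act downstream. In blood cells Irs2 was first known as a substrate of the interleukin 4 receptor, so that cytokine receptors share these docking proteins.

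Total counts per library lay between 27871827 and 29501591. Hhex itself had 5226 and 5656 reads in the libraries labelled deleted against 3491 and 3290 in wild-type, with edgeR's log2 fold change at 0.60 ± 0.09 (SE, adjusted p = 0.0271), in the direction opposite to a loss. The call ended without wild-type replicate 1 (adjusted p = 0.0575) or 2 (0.148), on the deposited log2 RPKM values with limma (0.0719) and with a replicate block in edgeR (0.0518). A gene count includes exons outside a deleted part, so it does not check the deletion, and groups are named as labelled throughout. Kit stood at 605 and 698 CPM (reads scaled to library size) in the libraries labelled deleted and at 566 and 601 CPM in wild-type. Ly6a, which encodes Sca-1, stood at 20.7 and 42.5 CPM and at 25.4 and 25.4 CPM. The T cell marker Cd3d had 5 to 13 reads per library. Labelled deleted replicate 1 differed from the other libraries in sex-linked genes, with 77708 reads of Xist against 54 to 78 and 10 reads of the Y-linked gene Ddx3y against 3533 to 4174.

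Irs1 was nearly silent in wild-type LSK cells and was transcribed in both libraries labelled deleted. It had 206 and 218 reads in labelled deleted replicates 1 and 2. Wild-type replicates 1 and 2 had 2 reads each. The groups did not overlap, and both wild-type libraries lay below a floor of 3 counts. The fitted log2 fold change was 6.56 ± 0.33 (SE), or 94.3-fold. With 2 reads in each wild-type library this edgeR SE is likely too small. It was 0.81 with DESeq2 and 0.74 with limma on the deposited log2 RPKM values. The exact 95% interval of the ratio of pooled CPM, which covers counting error only, was 38.8 to 369. On a per-length scale (RPKM, reads scaled to gene length and library size) Irs1 went from 0.0078 ± 0.000228 to 0.78 ± 0.0134 RPKM (SD, n = 2 each). The wild-type SD comes from library size alone, since both libraries had 2 reads, and leaves out counting error. In wild-type replicates 1 and 2, 8582 and 8466 of the 26286 genes of the count table had a lower RPKM than Irs1, of which 8441 and 8362 had no read. Irs1 entered the 14912 tested genes only through its reads in the libraries labelled deleted, and 28 and 14 of those genes lay below it in wild-type. In labelled deleted replicates 1 and 2 the numbers among tested genes were 2056 and 1968, or 13.8% and 13.2% of the tested genes, so Irs1 stayed in the lower part of the range there too. Bulk RNA cannot tell a few cells with much Irs1 RNA from many cells with little.

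Irs1 lies on mouse chromosome 1 and has 2 exons in the GENCODE M21 gene model, with all of its coding sequence in 1 of them. Irs2, on chromosome 8, is built in the same way, with 99.9% of its coding sequence in 1 exon. The windows around their start sites are shown because these paralogous docking proteins differ so much in level in wild-type cells. Each runs from 250 bases before to 50 bases after the start of the gene, from RefSeq on GRCm38.p6, a later build than the mm9 of the counts. Both genes are on the minus strand, at chr1:82291390-82291689 for Irs1 and chr8:11008880-11009179 for Irs2, and the letters are given 5′ to 3′ along the gene. Capitals mark the E-box CACGTG, a palindrome bound by several helix-loop-helix factors.
Irs1: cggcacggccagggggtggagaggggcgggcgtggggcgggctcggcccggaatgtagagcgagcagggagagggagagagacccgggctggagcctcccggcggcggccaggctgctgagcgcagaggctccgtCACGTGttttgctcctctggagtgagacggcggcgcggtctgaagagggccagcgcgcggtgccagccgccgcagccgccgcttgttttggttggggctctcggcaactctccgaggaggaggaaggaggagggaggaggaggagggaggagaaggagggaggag
Irs2: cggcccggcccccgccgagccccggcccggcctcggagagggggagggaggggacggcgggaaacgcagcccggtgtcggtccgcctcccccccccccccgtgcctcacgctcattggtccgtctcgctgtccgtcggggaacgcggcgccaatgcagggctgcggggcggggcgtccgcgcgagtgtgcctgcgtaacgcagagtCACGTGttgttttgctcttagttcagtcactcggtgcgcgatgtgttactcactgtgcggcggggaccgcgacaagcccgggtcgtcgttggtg

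RefSeq windows were matched for Irs1, Irs2 and Igf1r. All were rich in G, C and CpG. GC content was 71.3%, 72.0% and 76.0%, and the ratio of observed to expected CpG was 0.827, 1.06 and 1.11, against medians of 52.7% and 0.384 over 32841 windows. The E-box begins 115 bases before the start of Irs1 (position -115) and at position -44 of Irs2, and it was not found in the Igf1r window. It occurs in 7.15% of all windows. The longest run of letters common to the Irs1 and Irs2 windows, on the same strand, was gtCACGTGtt, 10 bases long, present on either strand in 25 of the 32841 windows. The E-box was added to the search after these sequences had been seen. The other motifs were searched on both strands too. The GC box GGGCGG was present 2 times in Irs1, 1 time in Irs2 and 2 times in Igf1r (35.7% of all windows have it), and the forkhead core AAACA 2 times in Irs1, where one match overlaps the E-box, and 1 time in Irs2 (50.5% of windows). The TCF and LEF core CTTTG was found 2 times in Igf1r and in neither substrate gene (53.9% of windows). The homeodomain letters TAATTA and ATTAA, which can overlap each other, had no match in the 3 windows, against 5.29% and 27.1% of all windows. A match is a description of letters, not of binding.

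Irs2 was the main substrate transcript in every library. It had 319 and 224 reads in labelled deleted replicates 1 and 2, and 342 and 249 reads in wild-type replicates 1 and 2. The groups overlapped, and replicate 1 was the higher library in both, by a factor of 1.47 in CPM among those labelled deleted and of 1.43 in wild-type. Mean levels were 2.29 ± 0.616 RPKM in the libraries labelled deleted and 2.64 ± 0.662 RPKM in wild-type (SD, n = 2 each). Its log2 fold change was -0.21 ± 0.27 (SE). Its sign depended on single libraries: it was 0.05 without labelled deleted replicate 2, 0.07 without wild-type replicate 1, -0.51 without labelled deleted replicate 1 and -0.44 without wild-type replicate 2. The pooled ratio of 0.867 had a counting interval of 0.77 to 0.976, narrower than the spread between libraries.

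**Figure D1:**
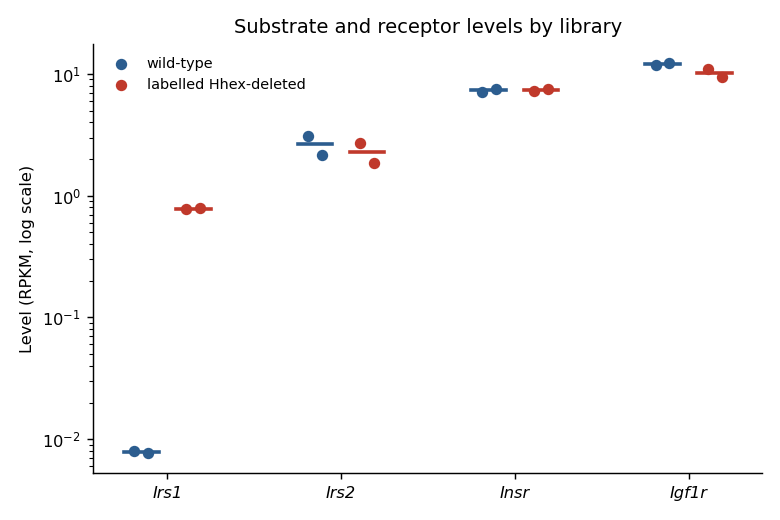
Level of the 4 genes in each library, in RPKM on a log axis, with points for libraries and bars for group means (n = 2 each). Irs1 sits near 0.0078 RPKM in wild-type and 0.78 RPKM in the libraries labelled deleted, whereas the points of Irs2 and Insr overlap between groups.

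The make-up of the substrate RNA differed between the groups, while its summed RPKM overlapped. Irs1 was 0.256% and 0.351% of the summed RPKM of Irs1 and Irs2 in wild-type replicates 1 and 2. It was 22.1% and 29.9% of that sum in labelled deleted replicates 1 and 2. The sum was 3.12 and 2.18 RPKM in wild-type and 3.49 and 2.64 RPKM in the libraries labelled deleted, with overlapping ranges. In reads, the sum was 344 and 251 in wild-type and 525 and 442 in the libraries labelled deleted, without overlap. The shares and RPKM sums rest on the authors' gene lengths. For Irs2 that length is shorter than the joined exons of GENCODE M21 (4015 against 6323 bases). The related genes add little: Irs3 had 2 and 0 reads in labelled deleted replicates 1 and 2 and 1 read in each wild-type library, and Irs4 had 0 reads in all libraries, which allows up to 3 counts per library.

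**Figure D2:**
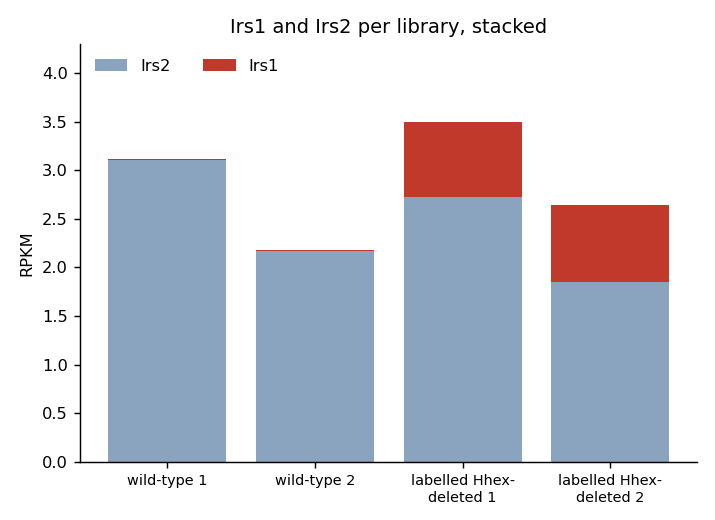
Stacked RPKM of Irs2 (lower part) and Irs1 (upper part) in each library, on an axis that starts at 0. Irs1 is a sliver of at most 0.351% in the wild-type bars and 22.1% and 29.9% of the bars of the libraries labelled deleted, while the bar heights of the groups overlap.

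Insr, which binds insulin and is the main metabolic receptor of the pair, was close in all libraries. It had 1994 and 2104 reads in labelled deleted replicates 1 and 2, and 1822 and 2011 in wild-type replicates 1 and 2. The groups overlapped at 7.38 ± 0.112 RPKM and 7.31 ± 0.297 RPKM (SD, n = 2 each). Its log2 fold change was 0.01 ± 0.08 (SE), and the pooled ratio was 1.01 with a counting interval of 0.965 to 1.05.

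Igf1r, the receptor for insulin-like growth factors, was the most abundant of the 4 genes per length. It had 3844 and 3405 reads in labelled deleted replicates 1 and 2 against 3874 and 4166 in wild-type replicates 1 and 2. In CPM these were 132 and 113 against 141 and 146, so both libraries labelled deleted lay below both wild-type libraries. The log2 fold change was -0.23 ± 0.10 (SE), and it was -0.12 when labelled deleted replicate 2 was left out and -0.35 when replicate 1 was. Of the 4 genes, 2 thus had groups that did not overlap, Irs1 on the higher side and Igf1r on the lower. Of all 14912 tested genes 45.5% had such groups, 21.9% higher and 23.7% lower.

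Per length, the order of levels was the same in both groups: Igf1r, Insr, Irs2 and Irs1. No 2 neighbours in this order overlapped within a group. In wild-type, Igf1r at 11.8 to 12.2 RPKM lay above Insr at 7.1 to 7.52 RPKM, and Insr above Irs2 at 2.17 to 3.11 RPKM. In the libraries labelled deleted, Igf1r at 9.43 to 11.0 RPKM lay above Insr at 7.3 to 7.46 RPKM, and Irs2 at 1.85 to 2.72 RPKM above Irs1 at 0.77 to 0.789 RPKM. The ratio of Igf1r to Insr in RPKM was 1.51 and 1.26 in labelled deleted replicates 1 and 2 and 1.66 and 1.62 in wild-type. These levels rest on the authors' gene lengths, which for Irs1 (9163 bases) are close to the joined exons of GENCODE M21 (9144 bases) but are shorter for Irs2 (4015 against 6323 bases), Insr (9355 against 13746) and Igf1r (11978 against 16791).

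**Figure D3:**
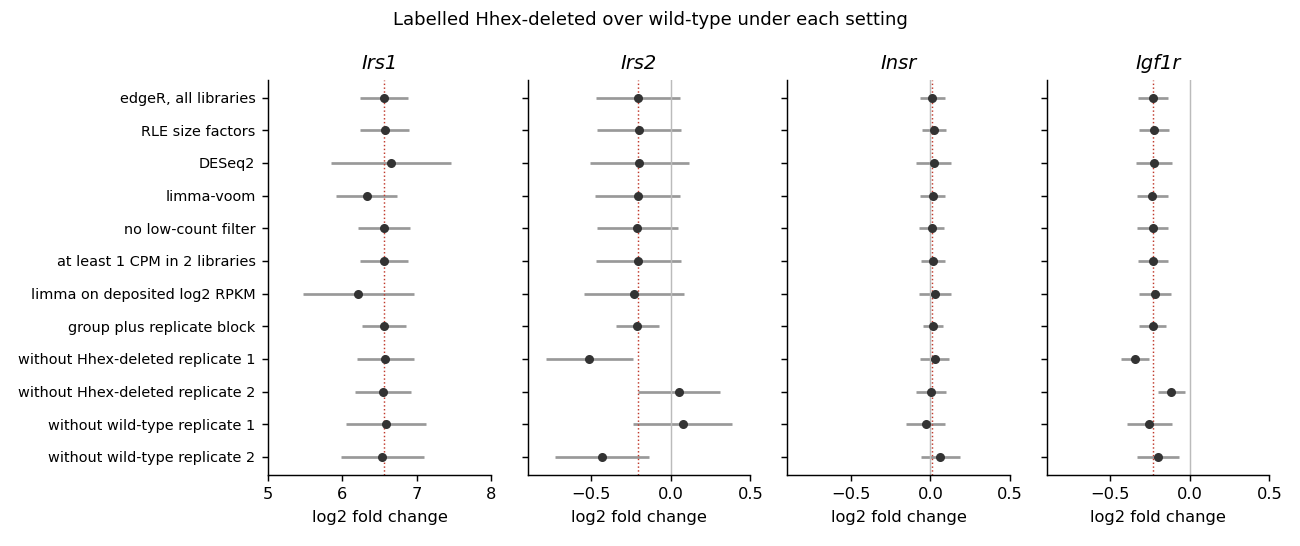
Log2 fold change (points) with its SE (bars) of each of the 4 genes, labelled deleted over wild-type, under each processing setting and with each library left out, with a separate axis range for Irs1. Irs1 stays between 6.22 and 6.65 while Irs2 crosses 0 when a single library is left out.

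The nearest tested genes beside the 4 were read in the same fit, in the order of the reference gene table. Genes that were not tested were skipped, so a listed gene need not be the adjacent gene. No tested gene came before Insr on its chromosome. Among tested genes, Dock10 and Cul3 come next to Irs1 on one side and Rhbdd1, Mff and Agfg1 on the other. Their log2 fold changes were 0.06 ± 0.07, 0.03 ± 0.08, -0.17 ± 0.12, 0.01 ± 0.07 and -0.03 ± 0.07 (SE). Fam124b, the third tested gene on the first side, had 15 and 34 reads against 11 and 5, with 1.51 ± 0.61 as its log2 fold change (SE, edgeR adjusted p = 0.309). None of 21 such neighbours of the 4 genes passed edgeR's test at an adjusted p under 0.05, against 2.6% of all tested genes. At an unadjusted p under 0.05 there were 1 higher and 2 lower of the 21, against 7.59% higher and 8.23% lower of all tested genes, a share near the background. These were Fam124b and, beside Irs2, the collagen genes Col4a1 (-0.68) and Col4a2 (-0.94), the latter named after their values were seen. DESeq2 called 1 neighbour lower, Col4a2, and limma-voom 0. Without labelled deleted replicate 2 edgeR called Col4a1 and Col4a2 lower.

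The genes whose pattern over the 4 libraries was most like that of Irs1, by Euclidean distance between centred log2 CPM values, were Wscd1 (distance 0.60), 2610019F03Rik (1.01), Cabp1 (1.05), Spats2l (1.26) and Lef1 (1.34). Wscd1 had 93 and 154 reads in the libraries labelled deleted and 1 read in each wild-type library. Lef1, a transcription factor of Wnt signalling, had 201 and 221 reads against 10 and 5. With a smaller prior count of 0.5 in place of 2, 2 of the 5 genes remained, and Tead1, a partner of the Hippo effectors with 41 and 33 reads against 0 and 0, was nearest.

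The rest of the pathway was read in 7 lists holding 158 different genes, of which 136 were tested. Of these 6 were higher and 3 lower by edgeR, or 6.62%, against 2.6% of all tested genes (1.48% higher and 1.12% lower). The median log2 fold change was 0.05, against -0.01 over all tested genes. The lists were chosen with earlier results of these data known, so their shares beside all tested genes are a description and not a test. With labelled deleted replicate 1 left out, calls on the higher side rose in these lists and over all tested genes alike.

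Among ligands, binding proteins and clearance genes, 2 of 8 tested members rose and 1 fell. Igf2r, the receptor that takes up and degrades insulin-like growth factor 2, had 3997 and 4974 reads in the libraries labelled deleted against 410 and 596 in wild-type. It rose by 3.07 ± 0.19 (SE) on the log2 scale (edgeR adjusted p = 0.00508) and passed the test in each of the 4 fits with a library left out. The antisense RNA Airn overlaps part of Igf2r and had 193 and 275 reads against 11 and 8. Without stated strand, reads from the stretch where the genes overlap cannot be told apart. Igfbp7, a secreted protein that binds these growth factors, rose with 330 and 228 reads against 67 and 66 (log2 fold change 1.99 ± 0.26 SE, edgeR adjusted p = 0.0226). Igfbp4, an inhibitory binding protein and the most abundant of this list, fell from 301.5 and 331 to 190.5 and 174.5 RPKM (log2 fold change -0.79 ± 0.09 SE, edgeR adjusted p = 0.0159). Leaving out wild-type replicate 1 or 2 ended the call of Igfbp7 (adjusted p = 0.0656 and 0.0994), and leaving out wild-type replicate 2 that of Igfbp4 (0.0755). Igfbp7 also lost its call with limma-voom (adjusted p = 0.0608), and both lost theirs with limma on the log2 RPKM values (0.0756 for Igfbp7 and 0.0672 for Igfbp4). Of the ligands, Igf1 had 57 and 68 reads against 22 and 19 (edgeR adjusted p = 0.0687), Igf2 had 19 reads in all 4 libraries together, and Ins1 and Ins2 had 0.

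Among other docking proteins and adaptors, 2 of 24 tested members fell and none rose. Dok2, a docking protein that restrains Ras signalling in myeloid cells, fell from 1082 and 912 to 554 and 528 reads (log2 fold change -0.97 ± 0.13 SE, edgeR adjusted p = 0.0253). Sh2b2, an adaptor of the insulin receptor and of Kit, had 484 and 445 reads against 807 and 898 (log2 fold change -0.96 ± 0.12 SE, edgeR adjusted p = 0.019). Grb2, which links the substrates to Ras, stood at 0.16 ± 0.08 (SE, edgeR adjusted p = 0.443). Dok2 lost its call without labelled deleted replicate 2 (adjusted p = 0.0651) or wild-type replicate 1 (0.0808), and Sh2b2 without wild-type replicate 1 (0.0507) or 2 (0.103). Dok2 also lost it with limma-voom (adjusted p = 0.0569), and both did with limma on the log2 RPKM values (0.0844 for Dok2 and 0.0719 for Sh2b2). The summed neutrophil and monocyte markers given below were also lower in the libraries labelled deleted, and a link was not tested. In wild-type replicates 1 and 2, that sum was 17358 and 21580 CPM. Dok2 had 39.5 and 31.9 CPM there, and Sh2b2 29.4 and 31.4 CPM.

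In the list named brakes on the receptors and substrates, 1 of 20 tested members rose, against 1.48% called higher of all tested genes. Whether each listed member acts as a brake in these cells was not tested. Nedd4, a ubiquitin ligase, had 222 and 209 RPKM against 128 and 110.4 RPKM, and rose by 0.85 ± 0.10 on the log2 scale (SE, edgeR adjusted p = 0.0161), a call that ended without wild-type replicate 2 (0.0658). Gnb2l1, now called Rack1, a scaffold protein of ribosomes and signalling complexes, stood at -0.05 ± 0.10 and Ywhab, a 14-3-3 protein, at -0.03 ± 0.08 (SE).

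No gene was called in the lists of the intracellular core, with 24 and 19 tested genes, a count near the 2.6% called of all tested genes. Of 24 tested genes of the PI3 kinase and Akt module none passed edgeR's test. At an unadjusted p under 0.05, 3 were higher and 3 lower of the 24, against 7.59% and 8.23% of all tested genes. DESeq2 called 1 higher and 2 lower, and limma-voom 0. The most abundant of them, Akt1, Gsk3a and Inpp5d (the phosphatase SHIP1), had log2 fold changes of -0.09 ± 0.08, -0.07 ± 0.08 and 0.15 ± 0.09 (SE). Of 19 tested genes of the TSC and mTOR module none passed either. At an unadjusted p under 0.05, 0 were higher and 1 lower of the 19, DESeq2 called 1 lower, and limma-voom 0. Rheb, the activator of mTOR complex 1, stood at 0.00 ± 0.07, and the translational repressors Eif4ebp1 and Eif4ebp2 at 0.05 ± 0.13 and 0.04 ± 0.10 (SE).

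Among FoxO factors and genes known as their targets, 3 of 23 tested members rose and none fell. These were Rag1 and Rag2, which encode the recombinase of antigen receptor genes, and the interleukin 7 receptor gene Il7r, all of lymphoid cells. Rag1 had 750 and 1180 reads against 72 and 80 (log2 fold change 3.58 ± 0.24 SE, edgeR adjusted p = 0.00434), Rag2 382 and 573 against 73 and 128 (2.16 ± 0.32, adjusted p = 0.0336) and Il7r 714 and 951 against 102 and 96 (2.98 ± 0.18, adjusted p = 0.00407). Rag2 lost its call without labelled deleted replicate 2 (adjusted p = 0.0733) or wild-type replicate 1 (0.0525), with limma-voom (0.0608) and with limma on the log2 RPKM values (0.0882). Foxo1 and Foxo3 themselves stood at 0.51 (edgeR adjusted p = 0.192) and 0.32 (0.0911). Of the 23 genes, 14 had groups that did not overlap on the higher side and 0 on the lower, against 21.9% and 23.7% of all tested genes. At an unadjusted p under 0.05, 11 were higher and 0 lower, against 7.59% and 8.23% of all tested genes. The list was chosen with earlier results of these data known, so these shares are a description and not a test. The summed B lineage markers given below were also higher in the libraries labelled deleted, and a link was not tested. The list median was 0.23. Without labelled deleted replicate 1, calls on the higher side rose in this list and over all tested genes alike.

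Of 19 tested cytokine receptors and kinases that use the substrates, 1 rose, Il7r. Jak1 and Jak3, kinases of the interleukin 4 and interleukin 7 receptors and the most abundant of the other members, stood at 0.20 ± 0.08 and 0.05 ± 0.09 (SE, edgeR adjusted p = 0.309 and 0.87).

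**Figure D4:**
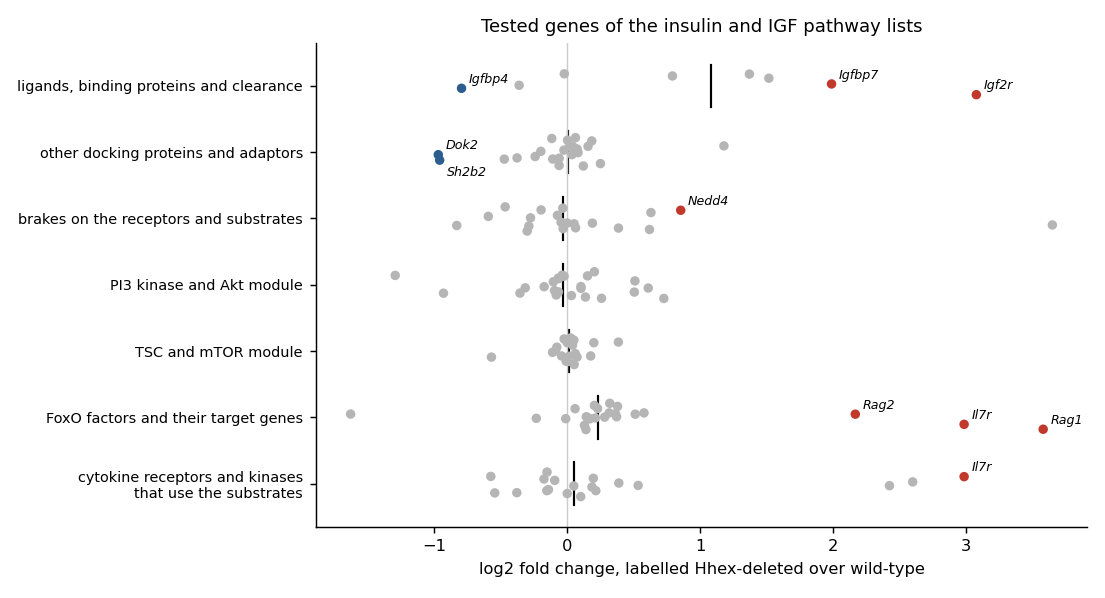
Log2 fold change of each tested gene of the 7 pathway lists, labelled deleted over wild-type, with red points higher and blue points lower by edgeR, grey points not past the test and black bars at list medians. Called genes are in the lists of ligands and binding proteins, docking proteins, brakes, FoxO and cytokine receptor genes. They are not always the outermost: among the brakes, Grb7 at 3.65 was not called and Nedd4 at 0.85 was. The PI3 kinase and mTOR lists, with 24 and 19 tested genes, hold none, near the 2.6% called of all tested genes.

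Markers of other cell types also differed between the groups, and their part in the Irs1 and pathway values was not tested. The 10 B lineage markers read here all had reads, with a sum of 118 and 146 CPM in the libraries labelled deleted and 41.2 and 46.9 CPM in wild-type. Of these 10, 9 were higher without overlap and 0 lower. The 9 mast cell and basophil markers summed to 1010 and 922 CPM against 321 and 336 CPM. Without overlap, 6 of them were higher and 2, Hdc and Tpsb2, lower. The 12 neutrophil and monocyte markers summed to 12050 and 8916 CPM against 17358 and 21580 CPM, with 7 lower without overlap and 0 higher. Erythroid markers (10) summed to 1579 and 1469 against 1156 and 1061 CPM, megakaryocyte and platelet markers (8) to 710.2 and 516 against 494 and 436 CPM, and the progenitor markers of the LSK gate (12) to 2835 and 3226 against 2587 and 2432 CPM. Without overlap, 3 of the 10 erythroid, 3 of the 8 megakaryocyte and 6 of the 12 progenitor markers were higher. On the lower side these numbers were 0, 0 and 1. The shares of all tested genes were 21.9% higher and 23.7% lower. The sum of the 10 macrophage markers was lower, at 98.3 and 103 against 118 and 135 CPM, but its members were mixed. Without overlap, 6 of them were higher in the libraries labelled deleted and 2, Vcam1 and Cd68, lower, against 21.9% and 23.7% of all tested genes. The complement gene C1qa had 218 and 187 reads against 48 and 31, the scavenger receptor gene Marco 7 and 7 against 0 and 0, and the adhesion gene Vcam1 650 and 707 against 1484 and 2139. The sums of stromal and osteoblast markers (13), endothelial markers (8) and T and natural killer markers (11) overlapped between the groups. Of single markers, 4 of 13 stromal and 2 of 8 endothelial were higher without overlap and 1 of each list lower. Over all tested genes these shares were 21.9% and 23.7%. Alpl had 46 and 60 reads against 9 and 9, and the endothelial cadherin gene Cdh5 18 and 24 against 3 and 3. The other stromal markers on the higher side had few reads, Lepr 6 and 5 against 1 and 3, Sp7 2 and 3 against 1 and 0, and Prrx1 1 and 1 against 0 and 0. The lower stromal marker, Bglap, had 0 and 0 against 3 and 2. The 7 adipocyte markers, 2 of them with no read, summed to 7.71 and 9.19 against 7.15 and 5.78 CPM. The bone collagen gene Col1a1 had 3 and 8 reads against 7 and 5, and the fat cell gene Adipoq 3 and 6 against 0 and 1. Irs1 had almost equal CPM in labelled deleted replicates 1 and 2, 7.06 and 7.23.

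**Figure D5:**
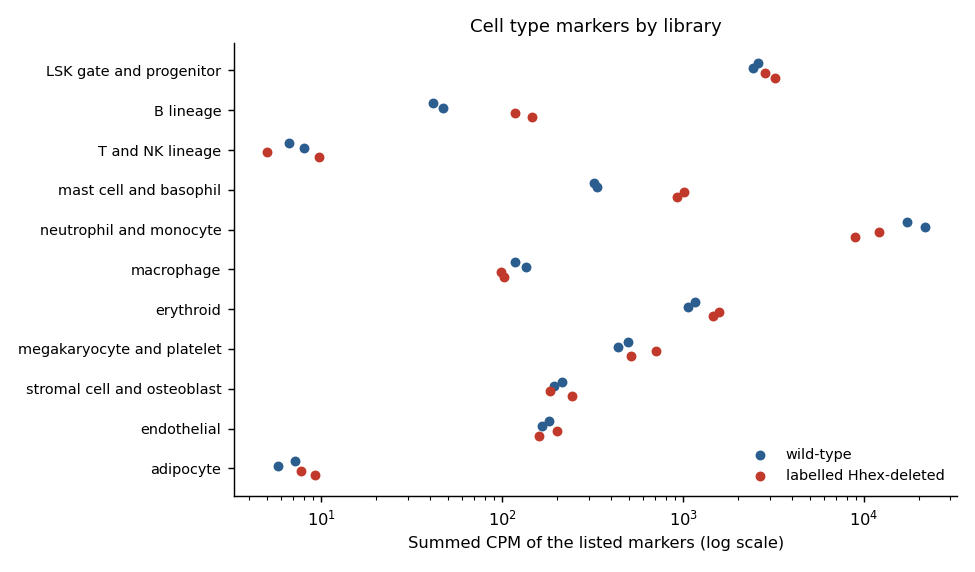
Summed CPM of each cell type marker list in each library, on a log axis. B lineage and mast cell sums are higher, and neutrophil and monocyte sums lower, in both libraries labelled deleted, while stromal and endothelial sums overlap. A sum is set mostly by its most abundant genes.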

How the data were processed

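The authors deposited raw read counts per Entrez gene for the 4 libraries, and log2 RPKM values per library for 12662 genes. Per the submitters' processing notes, the tools were featureCounts, Subread and limma and the build was mm9. Tool versions, strand setting and the handling of multi-mapping reads: not given in the sources used here. Symbols came from the deposited tables and a RefSeq table of GRCm38.p6, and 24255 of 26286 identifiers had one. Per the file headers, the log2 RPKM values are scaled to gene length and depth.

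Counts were analysed with edgeR 4.0.16 in R 4.3.3: filterByExpr by group (minimum count 10, minimum total 15), TMM factors, a robust quasi-likelihood fit with group as its term, and Benjamini-Hochberg adjustment over 14912 genes with a threshold of 0.05. CPM and RPKM were computed from counts and TMM-scaled totals, RPKM with the deposited gene lengths. An edgeR SE is the log2 fold change over the root of F. Alternatives were DESeq2 1.42.0, limma-voom and limma 3.58.1 on the log2 RPKM values, other size factors, other low-count filters, a replicate block and each library left out. The fits were tested on simulated data. A floor of 3 counts was 0.0995 to 0.109 CPM. Intervals and floors cover counting error only. Members and gene lists were chosen with earlier results of these data known. Genes are named by a rule: the members, Hhex, up to 6 called genes per pathway list filled to 3 by abundance, the 5 genes most like Irs1, and the 3 tested neighbours on each side of Irs1. For each marker list the most abundant and the first gene were read, and only those that bear on the text are printed. Irs3, Irs4, the ligands, Foxo1, Foxo3, Airn, Tead1, Ly6a and the sex-linked genes fall outside this rule and were chosen after their values were seen. The same holds for the markers Hdc, Tpsb2, Marco, Vcam1, Cd68, C1qa, Alpl, Lepr, Sp7, Prrx1 and Bglap. A listed marker gene is not reported here and is in no sum. Protein features that the rule names were not analysed here.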

Additional observations from a re-analysis of the deposited data

How the results depend on the processing

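The log2 fold change of Irs1 was 6.65 with DESeq2, 6.32 with limma-voom and 6.22 with limma on the deposited log2 RPKM values. With a library left out it was 6.54 to 6.59, a range that leaves out counting error, since both wild-type libraries had 2 reads. Irs2 ran from -0.51 to 0.07, Insr from -0.03 to 0.06 and Igf1r from -0.35 to -0.12 with a library left out, and under the other settings these 3 genes moved by less than the spread between libraries. All genes called higher and lower, 221 and 167, became 493 and 495 with DESeq2, 123 and 79 with limma-voom and 34 and 6 on log2 RPKM. Without a low-count filter 272 were lower. With a library left out the counts were 84 to 366 higher and 40 to 231 lower, lowest when wild-type replicate 2 was left out and highest when labelled deleted replicate 1 was. Pathway genes called, 6 and 3, became 14 and 6 with DESeq2, with 0 lower on log2 RPKM, and 4 to 10 higher and 1 to 3 lower with a library left out. Of the neighbours, DESeq2 called 1 lower, and 0 to 2 were lower with a library left out. Of the 5 genes most like Irs1, 2 were shared at a prior count of 0.5. The causes of these shifts were not tested. Of 295 re-runs of other named genes, 22 lost a call and 273 kept their side of the threshold. Of 154 re-runs of single list counts 25 moved by over 1.5 times.

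The labels do not say that equal replicate numbers pair libraries. Deviations from the group means of same-numbered libraries correlated at 0.33 across 14912 genes. With the replicate block 185 genes were higher and 130 lower, and the pathway counts stayed at 6 and 3. The SE of Irs2 was 0.13 in place of 0.27, and the adjusted p of Hhex 0.0518. Depth limits the size of the Irs1 ratio, since each wild-type library had 2 reads of it.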

Other observations

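The deposited log2 RPKM tables hold 12662 of the 26286 genes of the count table, and each listed gene reaches at least -0.86 in 1 library or more, as Irs1 does only in those labelled deleted. Within them Irs1 was the lowest gene of both wild-type tables, at -6.19 in replicate 1 and -6.83 in replicate 2, although both libraries had 2 reads of it. In the tables of labelled deleted replicates 1 and 2 it stood at -0.28 and -0.30, at positions 655 and 637 from the bottom.

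Some pathway genes differed without passing the test or varied within groups, and they are named here after their values were seen. Grb7, an adaptor that binds receptor tyrosine kinases, had 53 and 29 reads in the libraries labelled deleted against 1 and 5 in wild-type (log2 fold change 3.65, edgeR adjusted p = 0.056). The interleukin 9 receptor gene Il9r had 32 and 20 against 3 and 6 (2.42, adjusted p = 0.0879). The prolactin receptor gene Prlr had 12 and 15 against 3 and 1 (2.60, adjusted p = 0.12). Tbc1d4, an Akt substrate that controls glucose transporter traffic, had 1600 and 1803 reads against 1056 and 1200 (0.51, adjusted p = 0.0523). Klf2, a FoxO target, varied most within groups, with 365 and 88 reads in labelled deleted replicates 1 and 2 and 1246 and 62 in wild-type replicates 1 and 2. Gadd45a and Btg1, also on the FoxO list, were likewise higher in replicate 1 of both groups, with 896 and 532 against 838 and 452 reads for Gadd45a and 3336 and 2220 against 3049 and 1404 for Btg1. Irs2 was also higher in replicate 1 of both groups. The FoxO list as a whole did not share this direction. Txnip had 9771 and 13506 against 8841 and 11063 reads, and Bcl6 and Cited2 were likewise lower in replicate 1 of both groups.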
